A study of Mus musculus with 4 samples.

Results

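The 9 genes described here are Mcpt4, Cma1, Tpsb2, Tpsab1, Cpa3, Prss34, Mrgprb1, Kit and Kitl, taken by gene symbol from the 31054 features of the deposited count tables. All 9 symbols were found once in each of the 4 libraries. The libraries are single-cell RNA-seq (10x Genomics, 3' chemistry) of the stromal vascular fraction (SVF), the non-adipocyte part, of gonadal white adipose tissue (gWAT) from 18-month-old male mice. All animals carried p16-CreERT2 and R26-LSL-tdTomato and received tamoxifen, so that cells with an active p16 promoter at that time were marked by tdTomato, together with their later descendants. The SVF was sorted on tdTomato and on an antibody to CD45, the pan-leukocyte antigen, into 4 groups. Of the CD45- pair the labels are CD45- Tom+ and then CD45- Tom-, followed in the CD45+ pair by CD45+ Tom+ and then CD45+ Tom-, and lists of 4 values keep this order. Tom+ cells are the p16high cells of this reporter and Tom- cells the p16low cells. Each group is 1 library, and how many mice went into each was not given in the sources used here.

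Mast cells are tissue-resident leukocytes that store proteases, histamine and heparin in granules and release them when IgE receptors or other receptors are engaged. Their granule proteases fall into chymases, tryptases and carboxypeptidase A3. Tryptases cut after basic residues. The receptor tyrosine kinase Kit is needed for mast cell survival, and its ligand, stem cell factor, is encoded by Kitl and made as a membrane-bound and a shed form by stromal and endothelial cells. Connective-tissue mast cells of the mouse, the type found in adipose tissue, carry both chymases and tryptases.

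After filters on genes per cell, mitochondrial UMIs (unique molecular identifiers, which count captured RNA molecules) and doublets, 13878 cells were kept, 3886, 3674, 1927 and 4391 in the order of labels given above. They formed 29 clusters, 19 of which took 1 of 11 class names from marker genes. The Tom label matched the reporter transcript, with tdTomato at 713 and 715 CPM (UMIs of a gene scaled to one common total for every group of cells) in the Tom+ libraries and at 15.99 and 18.8 CPM in the Tom- libraries. The CD45 label did not match Ptprc, the gene for CD45, which lay between 158 and 223 CPM in all 4 libraries, so the labels are used here as names only. Cell barcodes were shared between every pair of libraries, from 26 barcodes to 4394, the most between the pair of Tom- libraries. In the median shared barcode the deeper copy held 15.1 to 94.0 times the UMIs of the shallower one, and between 1 and 14 shared barcodes of a pair of libraries passed the filters in both. Of the 617 mast-like cells, 10, 0, 2 and 1 had a barcode found in another library, and no barcode was mast-like in 2 libraries.

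The mast-like cells were set apart without the 9 genes, which were left out of the genes used for clustering and of the mast markers. They are clusters 0 and 1, with 598 and 19 cells, and 9 of the 10 mast markers were raised in each. Ms4a2 and Fcer1a, chains of the IgE receptor, lay at 544 to 636 and 2253 to 2511 CPM over the 4 libraries. Hdc, which makes histamine, lay at 3422 to 4513 CPM, and Mrgprb2, the receptor for basic secretagogues, at 437 to 578 CPM. Of the 6 basophil markers, which include Fcer1a and Ms4a2, a share of 0.83 was raised in each cluster, against 0.9 of the mast markers. Among them Il4 lay at 486 to 681 CPM and Cd200r3 at 322 to 424 CPM in the mast-like cells. Mcpt8, the basophil protease, was at 0 to 22.0 CPM in the same cells. Mast-like cells made up 9.24% and 8.98% of the kept cells of the Tom+ libraries (359 and 173 cells) and 1.03% and 1.07% of those of the Tom- libraries (38 and 47 cells). Their median depth was 6269, 6521.5, 6759 and 4885 UMIs per cell.

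In the mm10 assembly the chymase and tryptase genes lie in 2 loci. Mcpt4 (chr14:56059629-56062313, minus strand) and Cma1 (chr14:55941451-55944675, minus strand) belong to the chymase locus. Tpsb2 (chr17:25366305-25369098, plus strand), Tpsab1 (chr17:25343245-25345562, minus strand) and Prss34 (chr17:25298394-25300165, plus strand) lie in the tryptase locus. Cpa3 (chr3:20215620-20242181, minus strand; the microRNA gene Mir7007 lies inside it on the same strand), Mrgprb1 (chr7:48444113-48456342, minus strand), Kit (chr5:75574916-75656722, plus strand) and Kitl (chr10:100015630-100100416, plus strand) lie elsewhere. For the paralogs Tpsb2 and Tpsab1, Mcpt4 and Cma1, and Mrgprb1 and Mrgprb2, no stretch of 50 bases was shared between the transcripts, so that reads of these pairs could be told apart by sequence.

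Promoters are shown for 5 of the members: the 2 chymases and Cpa3, found in nearly all mast-like cells, Prss34, found in a minority of them, and Kitl, found mainly in other cells. RefSeq promoters of the GRCm38.p6 assembly were at hand for 7 of the 9 genes, not for Tpsb2 or Tpsab1. Each run is the 250 bases before a RefSeq transcription start, read 5′ to 3′ on the strand of the gene, and capitals mark the motifs searched on both strands: AGATAA and TGATAA, the sites of GATA factors, and CACATG and CACGTG, E-boxes of the kind bound by MITF. The regions are chr14:56062311-56062560 for Mcpt4, chr14:55944676-55944925 for Cma1, chr3:20242182-20242431 for Cpa3, chr17:25298144-25298393 for Prss34 and chr10:100015571-100015820 for Kitl.
Mcpt4: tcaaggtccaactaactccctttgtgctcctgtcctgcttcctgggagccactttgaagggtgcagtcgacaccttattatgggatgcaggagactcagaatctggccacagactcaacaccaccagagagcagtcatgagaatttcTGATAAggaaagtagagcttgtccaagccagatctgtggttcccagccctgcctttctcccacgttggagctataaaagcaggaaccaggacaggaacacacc
Cma1: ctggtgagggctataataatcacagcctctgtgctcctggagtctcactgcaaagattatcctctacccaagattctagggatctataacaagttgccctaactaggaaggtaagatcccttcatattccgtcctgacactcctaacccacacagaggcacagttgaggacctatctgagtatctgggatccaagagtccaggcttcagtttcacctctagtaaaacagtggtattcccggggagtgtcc
Cpa3: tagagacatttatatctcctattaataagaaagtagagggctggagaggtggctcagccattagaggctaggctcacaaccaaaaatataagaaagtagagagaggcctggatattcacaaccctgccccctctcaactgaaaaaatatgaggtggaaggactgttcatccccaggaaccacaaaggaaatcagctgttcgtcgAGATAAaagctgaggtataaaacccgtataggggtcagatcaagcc
Prss34: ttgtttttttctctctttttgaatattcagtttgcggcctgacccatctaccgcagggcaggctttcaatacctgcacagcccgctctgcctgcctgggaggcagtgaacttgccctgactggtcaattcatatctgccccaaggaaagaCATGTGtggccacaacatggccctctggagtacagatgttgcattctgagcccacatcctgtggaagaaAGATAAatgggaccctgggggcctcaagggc
Kitl: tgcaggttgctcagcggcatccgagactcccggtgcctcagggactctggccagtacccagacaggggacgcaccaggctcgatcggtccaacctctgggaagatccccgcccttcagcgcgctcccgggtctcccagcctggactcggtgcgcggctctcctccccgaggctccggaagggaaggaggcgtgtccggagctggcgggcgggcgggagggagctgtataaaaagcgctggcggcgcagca

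Mcpt4 held TGATAA, starting 103 bases before the start site. Cpa3 held AGATAA at 46 bases before its start, and Prss34 held AGATAA at 31 bases and CATGTG, the reverse of CACATG, at 100 bases. None of these motifs was found in the windows of Cma1, Mrgprb1, Kit or Kitl. Over all 32851 RefSeq promoters, 16.6% held AGATAA or TGATAA and 17.6% held CACATG or CACGTG. The windows differed more in base composition. Kitl held 23 CpG dinucleotides at 69.2% G+C and Kit held 17 and 18 at its 2 starts, whereas the windows of Mcpt4, Cma1, Cpa3, Prss34 and Mrgprb1 held 1 to 3 at 40.4% to 52.4% G+C. The median over all promoters was 6 CpG and 52.4% G+C.

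Levels are given as CPM of the summed UMIs of a group of cells, with exact 95% Poisson intervals. These intervals cover counting error only, and since a group has 1 library there is no spread between mice. No test across libraries was run, and no p-value is given. UMIs from a 3' library count molecules and not transcript length, so levels of different genes are set side by side without a length correction. The chymase Cma1 (the mouse alpha-chymase) was the most abundant member in mast-like cells, at 44639, 48307, 44445 and 46985 CPM in the 4 libraries. Mcpt4, the beta-chymase with chymotrypsin-like activity, followed at 28294, 32190, 26426 and 32785 CPM in the same order. Both Tom- values of Cma1 lay above both Tom+ values by a small margin, and both Tom- values of Mcpt4 lay above both Tom+ values.

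The tryptases were unequal. Tpsb2, the main mouse connective-tissue tryptase, reached 19160, 25638, 19354 and 22075 CPM. Tpsab1, another tryptase, reached 869, 721, 810 and 1110 CPM, far below Tpsb2 in each library. Prss34, a tryptase-like protease, reached 670, 900, 763 and 891 CPM. Cpa3, the carboxypeptidase stored with the chymases, reached 19523, 21582, 18723 and 20222 CPM, close to Tpsb2.

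The 6 proteases together took 11.3%, 12.9%, 11.1% and 12.4% of all UMIs of the mast-like cells. Among single cells this share ran from 2.19% to 20.9%, with medians of 10.8%, 11.4%, 10.4% and 11.8% by library. Cma1, Tpsb2 and Cpa3 were found in all 617 cells and Mcpt4 in 616 of them. The plot of protease share per cell shows broad, overlapping distributions in the 4 libraries.

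The receptors lay below Cma1, Mcpt4, Tpsb2 and Cpa3, with higher values in the Tom- than in the Tom+ libraries. Mrgprb1, a receptor of the Mas-related family and close relative of the secretagogue receptor Mrgprb2, lay at 2505, 2906, 2483 and 2993 CPM. Kit lay at 1641, 1903, 1686 and 2061 CPM, and 616 of the 617 cells had at least 1 Kit UMI. Kitl was close to absent from the cells that carried its receptor, with 3, 1, 1 and 0 UMIs over all mast-like cells of the 4 libraries. The count of 0 among 297395 UMIs has an exact interval reaching 12.4 CPM, and a floor of 3 counts lies at 10.1 CPM. The 5 UMIs of the other libraries correspond to 1.15, 3.66 and 0.724 CPM.

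**Figure D1:**
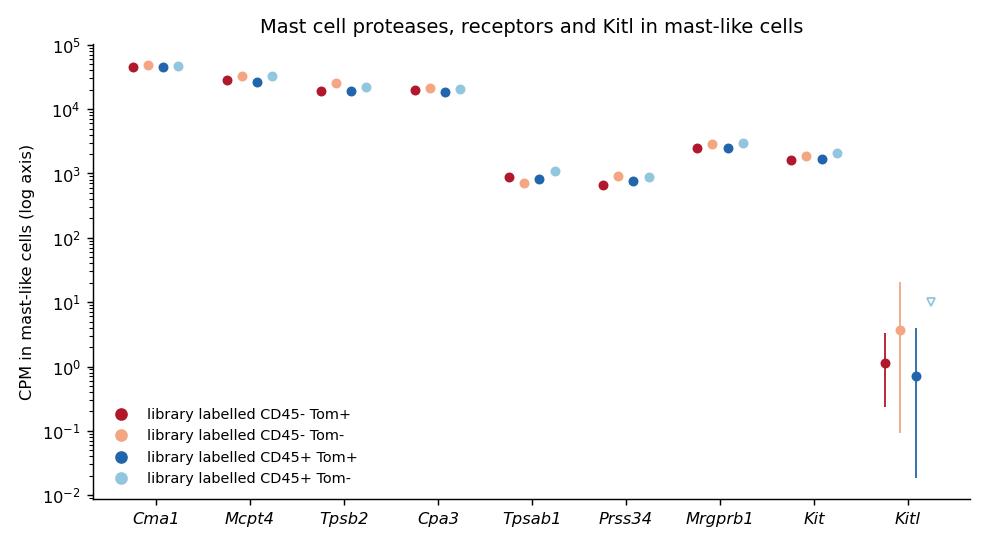
Level of each of the 9 genes in mast-like cells (CPM, log axis), 1 point for each of the 4 libraries, with exact 95% Poisson intervals; a triangle marks a count of 0 drawn at the floor of 3 counts. Cma1, Mcpt4, Tpsb2 and Cpa3 sit between 18723 and 48307 CPM, Mrgprb1 and Kit between 1641 and 2993 CPM, Tpsab1 and Prss34 between 670 and 1110 CPM, and Kitl at the bottom.

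Prss34 was the member that split the mast-like cells. It had no UMI in 460 of the 617 cells, 1 or 2 UMIs in 20 cells, 3 to 9 in 40, 10 to 19 in 37, 20 to 49 in 42, and 50 or more in 18. The share of cells with a Prss34 UMI was 24.5%, 26.3%, 27.2% and 25.5% in the 4 libraries. With each cell thinned to 2000 UMIs the shares were 22.8%, 21.1%, 27.2% and 23.4%. Tpsab1, at a like summed level, was instead spread over the cells, with a UMI in 82.7%, 84.2%, 89.0% and 89.4% of them.

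Cells with 3 or more Prss34 UMIs were set beside cells with none in each library. Of 5340 genes averaging 20 CPM or more, only Prss34 differed by 2-fold or more in the same direction in all 4 libraries both with a pseudocount of 5 CPM and with a count of 0 set to 3. Pdzk1ip1, a small membrane protein, did so with the pseudocount alone, and Prr12 with the floor alone. The Prss34 cells held 13, 3, 9 and 0 Pdzk1ip1 UMIs, or 22.3, 50.5, 22.5 and 0 CPM (the last with a floor of 3 counts at 39.5 CPM). The cells without Prss34 held 62.8, 115, 75.5 and 50.5 CPM. Ctsg, the granule protease cathepsin G, was at 97.6 CPM with Prss34 and 426 CPM without it in the library labelled CD45- Tom+, at 0 and 415 CPM in CD45- Tom-, and at 49.9 and 369 CPM in CD45+ Tom+. In the library labelled CD45+ Tom- the order was the other way, at 158 and 142 CPM. The cells were split by measured Prss34, so these values are a description; the Tom- libraries held only 8 and 11 cells with 3 or more UMIs.

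**Figure D2:**
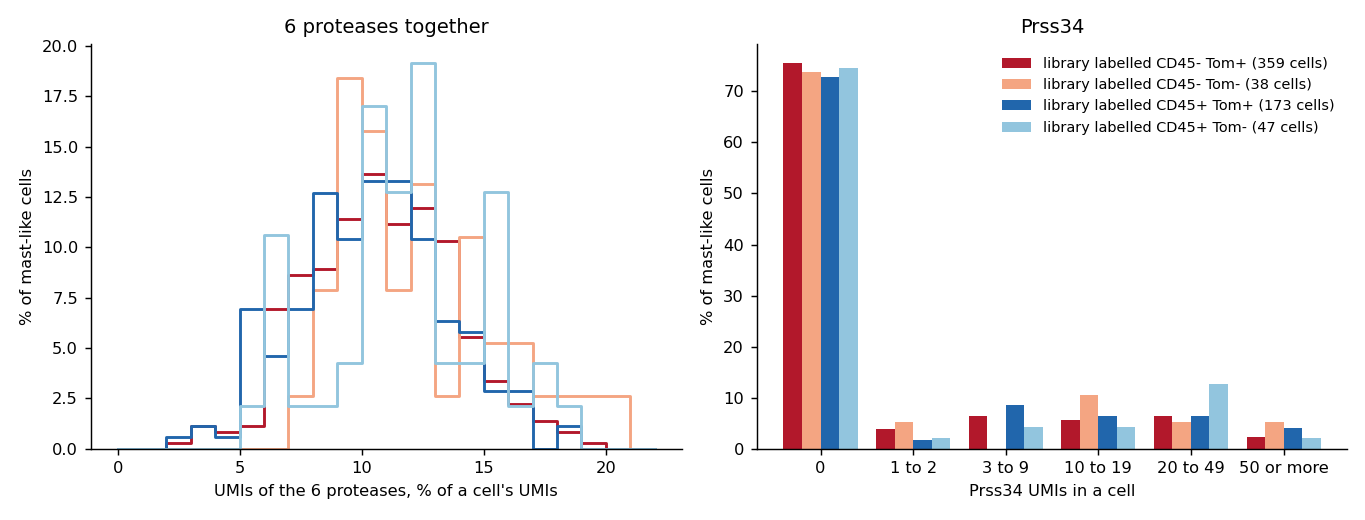
Left, histogram of the share of each mast-like cell's UMIs in the 6 proteases (percent, x axis) by library; right, share of mast-like cells (percent, y axis) in bins of Prss34 UMIs per cell. The median protease share is 10.8%, 11.4%, 10.4% and 11.8%, whereas Prss34 is at 0 in 75.5%, 73.7%, 72.8% and 74.5% of the cells and the rest spread from 1 UMI to 50 or more.

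The 19 cells of cluster 1 (13, 0, 5 and 1 by library) carried cell-cycle transcripts, with Mki67 at 1059 CPM against 9.98 CPM in cluster 0 and Top2a at 1071 against 11.1 CPM. In the cells of cluster 1 the granule genes stood in other proportions. Tpsab1 was at 1565 CPM in cluster 1 and 817 CPM in cluster 0, and Prss34 at 255 and 754 CPM. Ctsg was at 836 and 273 CPM, and Tpsg1, a membrane-anchored tryptase, at 390 and 113 CPM. Cma1 was at 51048 and 44597 CPM, Mcpt4 at 24622 and 28466 CPM, Tpsb2 at 14800 and 20088 CPM, and Kit at 1652 and 1700 CPM. These genes took part in defining the clusters, except the 9 members, and the differences are a description with no test.

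The other granule proteases were far below the main chymases. Gzmb (granzyme B) lay at 304 to 366 CPM over the libraries, Ctsg at 148 to 339, Tpsg1 at 95.2 to 175 and Cma2, a second chymase gene, at 87.9 to 102 CPM. Mcpt1 and Mcpt2, the chymases of mucosal mast cells, and Mcpt9 each stayed at or below 10.1 CPM. Il1rl1, the IL-33 receptor, lay at 2379 to 2991 CPM, and the transcription factor Gata2 at 928 to 1310 CPM.

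The design compares p16high with p16low cells within each CD45 label. The 6 proteases together were slightly lower in mast-like cells of the Tom+ libraries, by a log2 ratio of -0.19 (95% interval -0.21 to -0.18) in the CD45- pair and -0.17 (-0.18 to -0.15) in the CD45+ pair. For single members the log2 ratios in the 2 pairs were -0.11 and -0.08 for Cma1, -0.19 and -0.31 for Mcpt4, -0.42 and -0.19 for Tpsb2, and -0.14 and -0.11 for Cpa3. Prss34 had ratios of -0.43 and -0.22, Mrgprb1 of -0.21 and -0.27, and Kit of -0.21 and -0.29. Tpsab1 alone had opposite signs, at 0.27 (0.06 to 0.49) and -0.45 (-0.63 to -0.27). Without the 19 cells of cluster 1 its levels were 801, 721, 797 and 1121 CPM, and its ratios 0.15 (-0.06 to 0.37), an interval that included 0, and -0.49 (-0.67 to -0.31).

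None of the 8 members with enough UMIs to compare passed a 2-fold ratio with an interval excluding 0 in either pair. By the same rule, 4.36% of 8953 genes passed in the CD45- pair and 4.49% of 8934 in the CD45+ pair. Over all genes compared the median log2 ratio was -0.08 in both pairs. Immunoglobulin transcripts moved with the Tom label in the mast-like cells: the 385 immunoglobulin genes took 3.79% and 2.84% of the UMIs in the Tom+ libraries and 0.258% and 0.226% in the Tom- libraries. With these UMIs left out of the totals, the ratio of the 6 proteases was -0.14 and -0.13. Ighm, an immunoglobulin heavy chain gene, lay at 13024, 1080, 9437 and 995 CPM in mast-like cells. Over all cells outside them it lay higher, at 37504 CPM. Plasma cell-like cells numbered 826, 39, 429 and 58 in the same order of libraries. The part of RNA released from other cells in the immunoglobulin UMIs of mast-like cells was not tested.

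Gene lists around the members gave few calls in the same comparison. Among the 8 other granule proteases none of the 6 compared passed in either pair, with median log2 ratios of 0.22 and -0.15. Of 10 mast receptors, none passed in the CD45- pair, and Ptger3, a prostaglandin E2 receptor, was lower (-1.18) in the CD45+ pair. Of 14 mediator and granule genes, none passed in the first pair and Il6 was higher (1.16) in the second. None of the 8 mast transcription factors (medians -0.33 and -0.33) and none of the 20 KIT signalling genes (medians -0.12 and -0.12) passed in either pair.

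Outside the mast-like cells the 6 proteases were found at low levels in every class. Their summed level was 85.5, 24.99, 100.4 and 18.4 CPM over all other cells of the 4 libraries, which is 1323, 5175, 1101 and 6732 times below the mast-like cells. Of all protease UMIs, 97.4%, 95.01%, 97.1% and 95.7% were in mast-like cells. A protease UMI was nevertheless present in 81.5%, 36.7%, 73.5% and 27.4% of the other cells.

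This outside level was higher in the libraries with more mast-like cells. It was higher in the Tom+ than in the Tom- library by a log2 ratio of 1.77 (1.70 to 1.85) in the CD45- pair and 2.45 (2.36 to 2.53) in the CD45+ pair. Mast-like cells supplied 2.73% and 2.91% of the UMIs of kept cells in the Tom+ libraries and 0.367% and 0.326% in the Tom- libraries. Without the barcodes found in more than 1 library the ratios were 1.48 and 2.35. The looser filter on cells (500 genes, 20% mitochondrial UMIs) gave 1.599 and 1.34, and thinning each cell to 2000 UMIs gave 1.92 and 3.32, so that the size of the ratio depended on the processing while its sign did not. The part of RNA released from mast cells in the outside level was not tested.

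The protease UMIs per cell were nearly alike across classes while the CPM were not. Over groups with at least 20 cells, UMIs per cell lay within 2-fold of the library median in 18 of 18, 14 of 14, 16 of 18 and 15 of 15 groups, whereas CPM did so in 10, 10, 11 and 9 of them. In the CD45- pair the highest CPM were in shallow cells, the neutrophil-like cells of CD45- Tom+ (441 CPM) and of CD45- Tom- (109 CPM). Deeper cells could also be high, as in cluster 2 of CD45+ Tom+ (457 CPM at a median of 21050 UMIs). Mcpt4, Tpsb2 and Cpa3 also kept close to their mast proportions to Cma1. For each 100 Cma1 UMIs the mast-like cells held 59.5 to 69.8 Mcpt4 UMIs. They were compared with the 52 other groups of at least 20 Cma1 UMIs, which include the pooled outside cells of each library. Of these, 51 lay within 2-fold of the mast range (median 54.2). Some groups with fewer Cma1 UMIs lay outside it, such as NK cell-like cells of CD45- Tom- (21.4, from 14 Cma1 UMIs) and dendritic-like cells of CD45+ Tom- (26.7, from 15). For Tpsb2 the mast range was 42.9 to 53.1 and the median elsewhere 46.7; for Cpa3 these were 42.1 to 44.7 and 40.0. Most other groups lay below the mast range for Mcpt4 (36 of 52) and Cpa3 (32 of 52). For each 100 Cma1 UMIs, Tpsab1 stood higher over all outside cells, at 3.49, 2.27, 3.11 and 6.01 UMIs in the 4 libraries. Its values in mast-like cells were 1.95, 1.49, 1.82 and 2.36. The outside values rest on 114, 17, 53 and 40 Tpsab1 UMIs. Prss34 stood at 1.04, 0.533, 2.64 and 1.802 outside, from 34, 4, 45 and 12 UMIs. In mast-like cells it stood at 1.501, 1.86, 1.72 and 1.897, so its direction varied by library. Cells with more than 1% of their UMIs in proteases outside the mast-like clusters numbered 1, 0, 7 and 1.

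The 2 groups outside the 2-fold band of UMIs per cell were in the library labelled CD45+ Tom+, whose median was 1.49 UMIs per cell. Cluster 2, led by Cxcl13 and Cxcl5, held 11.5 protease UMIs per cell there (457 CPM), and cluster 25, led by Vwf and Lep, held 8.46 (1027 CPM). In the library labelled CD45- Tom+ the same clusters held 1.92 and 1.76 UMIs per cell, the latter from 17 cells.

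**Figure D3:**
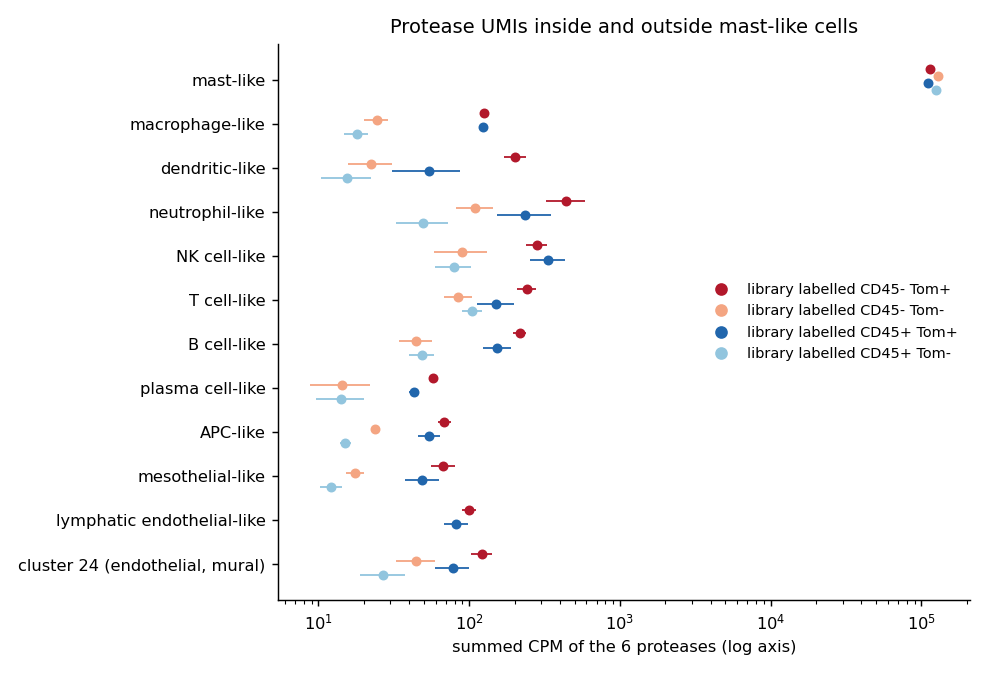
Summed level of the 6 proteases by class and library (CPM, log axis) with exact 95% Poisson intervals; groups under 10 cells are not drawn. Mast-like cells sit far to the right of all others, the neutrophil-like cells of CD45- Tom+ are the next highest at 441 CPM, and in each other class drawn for both labels both Tom+ libraries lie above both Tom- libraries.

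The adipose progenitor cells (APC-like cells, 266, 1522, 106 and 1716 by library) carried this level too. Of the 5 members that could be compared, 4 were past 2-fold higher in Tom+ in both pairs, against 1.51% of 9914 and 1.52% of 9826 genes passing in either direction. Cma1 in APC-like cells was 31.2 against 8.91 CPM in the CD45- pair (log2 ratio 1.81) and 22.0 against 6.14 CPM in the CD45+ pair (1.84). The ratios of Mcpt4 were 1.49 and 1.58, those of Tpsb2 1.08 and 2.13, and those of Cpa3 1.29 and 1.79. All 4 genes lay at or near the level found in every class, and the ratio of the outside level as a whole was 1.77 and 2.45 in the same pairs. The fifth member, Kitl, was not among those called and is described with its other sources.

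Kit, unlike Mcpt4, Tpsb2 and Cpa3, was far out of its mast proportion to Cma1 in several other classes. In mast-like cells Kit stood at 3.68 to 4.39 UMIs for each 100 Cma1 UMIs. In cluster 24, the cluster of endothelial and mural cells described next, it stood at 78.3, 638, 200 and 927 per 100 Cma1, and its level was 44.3, 76.9, 58.0 and 76.5 CPM. Dendritic-like cells had 39.3, 74.4, 50.4 and 56.2 CPM, the third value from 14 cells. NK cell-like cells had 19.04, 24.1, 84.9 and 18.2 CPM, from 7 to 15 UMIs a library. By contrast, APC-like cells stayed at 0.402 to 1.49 CPM and mesothelial-like cells at 0 to 0.556 CPM. The intervals of cluster 24 (57.2 to 72.4 CPM over all libraries) and dendritic-like cells (53.1 to 67.5 CPM) overlapped, and both lay above NK cell-like cells (19.3 to 35.3 CPM).

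Among dendritic-like cells, Kit was highest in those with Xcr1, the marker of type 1 conventional dendritic cells. The 69 cells with an Xcr1 UMI held 91.0 CPM (77.5 to 106) and the 165 without it 40.7 CPM (33.6 to 48.8). Cells with Cd209a, a marker of type 2 cells, held 28.5 CPM against 71.5 CPM in the others. Cells with Ccr7, the receptor of migrating dendritic cells, held 43.0 against 72.8 CPM.

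Kitl had its highest level in the vessel cells. Cluster 24 (85, 115, 45 and 140 cells) held all 7 blood endothelial markers and all 5 mural markers and was led by Rbp7, Rgs5, Aqp7 and Gpihbp1, so it was left without a class name. Its Kitl level was 365, 508, 322 and 461 CPM. The share of its cells with a Kitl UMI was 89.4%, 87.8%, 91.1% and 88.6%, and 45.9% to 61.1% after thinning to 2000 UMIs. Cluster 25, with 78 cells (17, 3, 54 and 4 by library), came next at 112 CPM (90.7 to 136). Its only library group of 20 or more cells, CD45+ Tom+, held 108 CPM. All 7 blood endothelial markers were raised in it, but it was left unnamed because the adipocyte marker Lep was among its leading genes.

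Below the vessel cells, mesothelial-like cells held 53.9, 66.2, 65.8 and 63.2 CPM of Kitl, and macrophage-like cells 42.5, 34.9, 40.1 and 41.9 CPM. The 4 values of each class lay apart from those of the other. Cluster 4, led by Car6 and Arg1, had all 7 macrophage markers raised. It was left unnamed because the monocyte marker Chil3, and no macrophage marker, was among its leading genes. Its 1074 cells held less Kitl than the macrophage-like cells, at 5.38, 2.75, 4.44 and 2.47 CPM. Cluster 2 held 20.3, 31.0, 36.1 and 26.2 CPM, and APC-like cells 23.8, 19.5, 17.2 and 17.3 CPM, ranges that overlapped. Within the APC-like class the clusters ran from 6.83 CPM (cluster 20, led by Thbs4 and Cthrc1) to 27.5 CPM (cluster 19, led by interferon-response genes). Cluster 28, led by Pi16, a marker of multipotent progenitors, was at 25.8 CPM. Lymphatic endothelial-like cells, at 2.19 CPM (1.09 to 3.92), were near T cell-like cells (1.32) and B cell-like cells (1.70), and plasma cell-like cells were at 0.537 CPM.

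The level in cluster 24 was 15.3, 26.1, 18.7 and 26.6 times that of APC-like cells in the 4 libraries. It was 6.77, 7.68, 4.89 and 7.30 times that of mesothelial-like cells and 8.58, 14.6, 8.02 and 11.0 times that of macrophage-like cells. The stromal and macrophage shares were low after thinning. Among mesothelial-like cells 63.8%, 63.5%, 82.4% and 67.4% had a Kitl UMI (8.82% to 13.4% thinned), among macrophage-like cells 34.7% to 41.9% (7.37% to 8.25% thinned), and among APC-like cells 24.5% to 27.4% (3.77% to 4.09% thinned). Plasma cell-like cells, which should lack Kitl, had a UMI in 0% to 3.45% of cells at a median depth of about 38843 UMIs, above that of APC-like cells.

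The sum over all cells divides Kitl differently by library. Cluster 24 supplied 25.1%, 22.5%, 24.4% and 23.2% of all Kitl UMIs from 2.19% to 3.19% of the cells. APC-like cells supplied 8.12% and 4.61% in the Tom+ libraries and 27.7% in both Tom- libraries, where they were 41.4% and 39.1% of cells against 6.85% and 5.50%. Mesothelial-like cells supplied 5.47% and 8.22% against 30.7% and 28.1%. Macrophage-like cells supplied 34.5% and 26.9% in the Tom+ libraries against 6.88% and 10.9%. The sorted libraries do not hold cells in their tissue proportions, so these are shares of the libraries and not of the tissue.

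**Figure D4:**
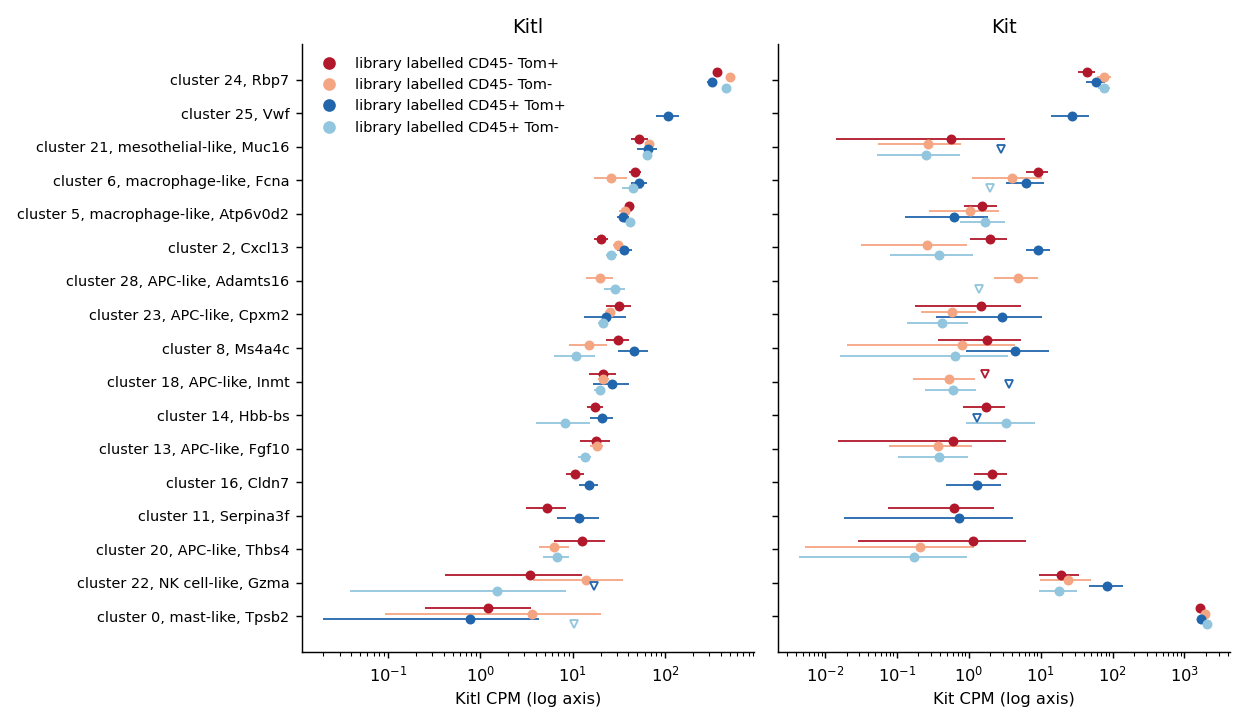
Kitl and Kit levels (CPM, log axis) by cluster and library, with exact 95% Poisson intervals; the 16 clusters of at least 50 cells with the highest Kitl are drawn, with mast-like cluster 0, leaving out library groups under 20 cells, and triangles mark counts of 0 at the floor of 3 counts. Cluster 24 is highest for Kitl (322 to 508 CPM), and mast-like cluster 0 is highest for Kit and at 5 or fewer Kitl UMIs over all libraries.

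In cluster 24 the Kitl level was lower in Tom+, by a log2 ratio of -0.48 (-0.66 to -0.29) in the CD45- pair and -0.52 (-0.74 to -0.30) in the CD45+ pair. Neither passed 2-fold. Of 6 members compared there, 2 passed in each pair (Cma1 with Cpa3, then Cma1 with Mcpt4), both higher in Tom+ and both from the proteases found in every class, beside 5.17% of 10079 and 7.44% of 9990 genes. Kit had ratios of -0.79 (-1.32 to -0.28) and -0.40 (-0.94 to 0.12), the latter with an interval that included 0.

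Cluster 24 was not uniform. Of its 9 subgroups, subgroup 6 had the highest Kitl, at 711 CPM (637 to 791), and 1 Kit UMI (2.11 CPM). Its 45 cells (5, 23, 1 and 16 by library) were led by Col8a1 and Gja5, the latter an arterial connexin. Subgroups 3 and 4 came next in Kitl, at 617 CPM (532 to 712) and 595 CPM (527 to 669). Their intervals overlapped that of subgroup 6. Subgroup 1 (49 cells, led by Apln and Pgf, made by angiogenic tip cells) had Kitl at 349 CPM and the highest Kit, at 220 CPM (188 to 256). Subgroup 5 (32 cells, led by the venular genes Selp and Ackr1) had Kitl at 345 CPM and Kit at 12.9 CPM. Subgroup 2 (55 cells, led by Acta2 and Pdgfrb, with all 5 mural markers) had the lowest Kitl, at 257 CPM (227 to 291). It also held all 7 blood endothelial markers, with Pecam1 at 701 CPM and Cdh5 at 972 CPM, and had the highest median depth, 16786 UMIs. Its Kitl level therefore cannot be assigned to mural cells alone. Ligand and receptor peaked in different vessel subgroups.

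The mix of subgroups differed by library, with 24 of 85 and 12 of 45 cells of the Tom+ libraries in subgroup 2 against 12 of 115 and 7 of 140 in the Tom- libraries. Without subgroup 2 the Kitl ratio was -0.30 (-0.50 to -0.09) and -0.22 (-0.46 to 0.02). With 1 mix of subgroups in both libraries of a pair it was -0.13 and -0.56. For Kit the ratios were -0.76 and -0.02 without subgroup 2, and -0.54 and 0.23 with 1 mix of subgroups, so that the sign in the CD45+ pair changed. The subgroups were formed without the members. The ratios rest on 45 to 140 cells a library, or 33 to 133 without subgroup 2.

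**Figure D5:**
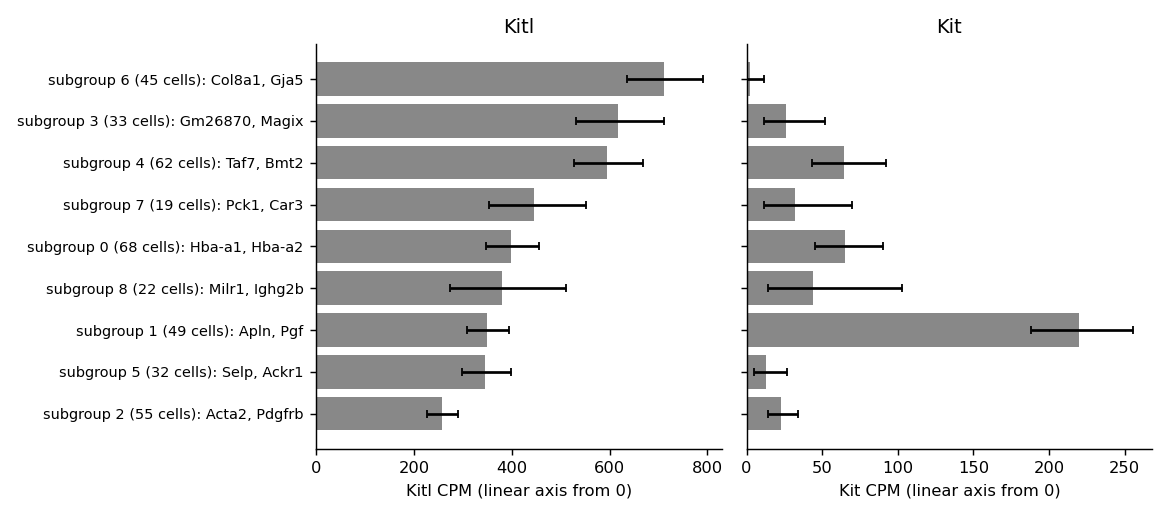
Kitl (left) and Kit (right) in CPM, on linear axes from 0, for the 9 subgroups of cluster 24 over all 4 libraries; bars are summed levels and lines exact 95% Poisson intervals. Subgroup 6 lies at 711 CPM Kitl and 2.11 CPM Kit, and subgroup 1 at 349 CPM Kitl and 220 CPM Kit.

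In APC-like cells the Kitl ratio of Tom+ to Tom- was 0.29 (0.02 to 0.55) in the CD45- pair and -0.02 (-0.48 to 0.41) in the CD45+ pair. The first interval included 0 without the barcodes found in more than 1 library (0.26, -0.07 to 0.59) and with the looser filter on cells (0.26, -0.01 to 0.52). Of 8 metalloproteases listed as candidates for shedding Kitl, such as Adam17 and Mmp9, 6 had enough UMIs to compare. None passed 2-fold in APC-like cells in either pair. In cluster 24 none passed in the CD45- pair and Mmp14 was higher in Tom+ (1.19) in the CD45+ pair.

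Across 55 units of class and library with at least 50 cells, the genes whose log2(CPM + 1) was most like that of Mcpt4 were Cma1 (Pearson r = 0.985), Cpa3 (0.983), Tpsb2 (0.978), Fcer1a (0.956) and Slc18a2 (0.938), the vesicular monoamine transporter. For Kit they were Kcnq1 (0.778), Nfkbil1 (0.756), Gcsam (0.728), Tspan2 (0.718) and Gm973 (0.717). For Kitl they were Lims2 (0.877), Cd59a (0.857), Tpm1 (0.830), Phf11d (0.829) and Angptl4 (0.829). These were the highest of 10846 genes, the units share 4 libraries, and the correlations are given as a description. Only the Tom+ mast-like groups (359 and 173 cells) reached 50 cells, and the Tom- mast-like groups (38 and 47 cells) were left out. The values for Mcpt4 and Kit therefore rest on few mast-like units. Between Kit and Kitl, r was -0.08.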

How the data were processed

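Per the labels and the submitters' processing notes, the authors digested the gWAT SVF, sorted it, prepared 10x libraries and made the matrices with Cell Ranger 3.0.2 and mm10; the deposited values are UMI counts per gene and barcode, not normalized. The strand setting and how many mice were pooled were not given in the sources used here. Depth was 139397501, 110410319, 64083756 and 136459745 UMIs.

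Barcodes with more than 1000 and fewer than 7000 genes and under 8% mitochondrial UMIs were kept, and doublets were removed with Scrublet at 0.8% per 1000 barcodes (scanpy 1.11.5, python 3.11.15). Leiden clustering (igraph 0.11.9) at resolution 1 used 2000 variable genes without the members and tdTomato, 30 components and 15 neighbours. A cluster was named from 3 or more markers that reached 20 CPM and 4-fold the median of all clusters, thresholds set after seeing the data. The members and gene lists were chosen with earlier results of these data known.

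CPM, shares (exact Clopper-Pearson intervals) and log2 ratios (conditional exact intervals, scipy 1.17.1) were computed from summed counts, and tested on simulated data. A gene was compared at a mean of 5 CPM and called past 2-fold with an interval excluding 0; for the fold, a count of 0 was set to 3. All members were named, with up to 6 genes of each list, and leading genes of clusters, their cell-cycle and granule genes, and genes beside Prss34, Xcr1, Cd209a or Ccr7 were chosen after their values were seen. Alternatives were filters, doublets, resolution, gene number, thinning to 2000 UMIs and weighting. Coordinates are from GENCODE on mm10.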

Additional observations from a re-analysis of the deposited data

Results flagged for a closer look

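Tpsab1 in mast-like cells differed in direction between the pairs. Its log2 ratio of Tom+ to Tom- was 0.27 in the pair labelled CD45- and -0.45 in the pair labelled CD45+, so that the libraries of each pair differed in opposite directions. Without the 19 cells of cluster 1, of which 13 were in the library labelled CD45- Tom+ and 0 in CD45- Tom-, the ratios were 0.15 (-0.06 to 0.37) and -0.49, and the first interval then included 0. With 1 library a group, the difference between the pairs was not tested.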

How the results depend on the processing

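The ratios of the 6 proteases in and outside mast-like cells kept their sign under every alternative run, and no member level in mast-like cells other than Kitl moved by more than 1.5-fold in 352 values (highest 1.27-fold, Prss34). Log2 ratios of the 6 proteases, in mast-like cells unless called outside, moved beyond their main intervals as follows. With doublets kept they were -0.22 (CD45-), -0.13 (CD45+) and 1.85 outside (CD45+). With a minimum of 500 genes and a mitochondrial limit of 20% they were -0.33 and 1.599 outside (CD45-), and -0.25 and 1.34 outside (CD45+). With cells thinned to 2000 UMIs the outside ratios were 1.92 and 3.32. With equal weight for each cell they were 1.89 outside (CD45-), -0.19 (CD45+) and 3.18 outside (CD45+). Of the alternatives chosen after seeing the data, leaving out shared barcodes gave 1.48 and 2.35 outside, leaving out cluster 1 gave -0.15 (CD45+), and leaving out immunoglobulin UMIs gave -0.14 and 2.20 outside (CD45-) and -0.13 and 2.88 outside (CD45+). Why these values moved was not tested. The Kit ratio of cluster 24 in the CD45+ pair changed sign, from -0.40 to 0.23, with 1 mix of subgroups, also chosen after seeing the data. An additive fit of the Tom and CD45 labels over the 4 libraries, which would leave 1 residual degree of freedom, was not run. Ratios in Tom- mast-like cells rest on 38 and 47 cells, and Kitl in mast-like cells on 5 UMIs.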

Other observations

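Mast-like cells also carried the transcripts of stored amines, proteoglycan and cytokines. Over the 4 libraries Srgn, the core protein of granule proteoglycans, lay at 6193 to 6601 CPM, and Slc18a2, which loads amines into granules, at 945 to 1180 CPM. Tph1, the first enzyme of serotonin synthesis, lay at 881 to 1120 CPM. Of the cytokines, Il4 lay at 486 to 681 CPM and Il13 at 243 to 348 CPM, against 0.329 and 0.391 CPM over all cells outside the mast-like clusters. Il6 lay at 57.2 to 127 CPM in mast-like cells and at 167 CPM outside them. Cd200r3, a receptor of mast cells and basophils, lay at 322 to 424 CPM.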
